A study of Mus musculus with 9 samples.

Results

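Chromatin accessibility at 10 genes for matrix proteases and their inhibitors was followed across mouse brain endothelial cells (ECs). The genes were Adamts1, Adamts4, Adamts9, Mmp14, Mmp15, Adam10, Adam15, Adam17, Timp2 and Timp3, and their peaks were all peaks to which the deposited annotation gives one of these names. That rule gave 235 of the 253457 peaks and 10 of the 20035 gene names. Peaks of different libraries that share at least 1 bp were merged into regions, and the 10 genes held 52 of 92495 regions. The assay was Omni-ATAC-seq, in which a transposase cuts and tags open chromatin, on nuclei of purified ECs in 9 libraries. Young WT Cre (n = 2) and old WT Cre (n = 2) mice carried only the Cdh5 Cre driver, a tamoxifen-inducible Cre under the VE-cadherin promoter that is active in ECs. Young EC-K4KO (n = 3) and old EC-K4KO (n = 2) mice carried the same driver and floxed Klf4, which codes for a zinc finger transcription factor. Per the methods, mice of both sexes and of both genotypes received tamoxifen. Young mice of the cohorts were 4 to 6 months old and old mice 20 to 23 months, whereas the library labels say only young or old. Whether each library is 1 animal or a pool is not given in the sources used here, so p-values measure the spread between libraries, which may be technical.

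ADAMTS proteases are secreted and cut proteoglycans and other matrix proteins, and ADAMTS1 is known in vessels for cleaving versican and for restraining growth of new vessels. Membrane-type matrix metalloproteinases such as MMP14 and MMP15 act at the cell surface, where they cut basement membrane proteins and activate other metalloproteinases. ADAM10 and ADAM17 are membrane sheddases that release the outer parts of receptors, ligands and adhesion proteins. TIMP2 and TIMP3 are tissue inhibitors of these enzymes, and TIMP3, which stays bound to the matrix, also inhibits ADAM17 and several ADAMTS enzymes.

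The sequences shown first are those of the 4 regions open in all 9 libraries and of 2 that passed a contrast described further on, the Timp2 promoter and a Timp3 intron region. The Adamts1 region 10.4 kb downstream, which also passed one, overlaps the gene's 3' end and is not shown. The 6 windows are 4 promoters, read from the RefSeq promoter table of GRCm38.p6 as the 250 bases before the gene's start on the gene's strand, and 300 bases at the centre of 2 non-promoter regions on the plus strand. The table held 9 of the 10 genes. Capitals mark matches on either strand to letters known for the KLF family (GGGNGTGG), ETS factors (CCGGAA), AP-1 (TGANTCA), the GC box (GGGCGG) and the CCAAT box (CCAAT), and neighbouring matches can overlap. The windows are, in order, chr16:85803114-85803363, chr11:118355412-118355661, chr9:70678732-70678981, chr12:21373633-21373882, chr16:85756189-85756488 and chr10:86331797-86332096.
Adamts1 promoter: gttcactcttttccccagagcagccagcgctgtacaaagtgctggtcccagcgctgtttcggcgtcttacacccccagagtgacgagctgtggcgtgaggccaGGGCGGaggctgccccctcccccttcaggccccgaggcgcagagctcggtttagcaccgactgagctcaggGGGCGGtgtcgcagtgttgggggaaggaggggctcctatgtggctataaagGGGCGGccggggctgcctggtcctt
Timp2 promoter: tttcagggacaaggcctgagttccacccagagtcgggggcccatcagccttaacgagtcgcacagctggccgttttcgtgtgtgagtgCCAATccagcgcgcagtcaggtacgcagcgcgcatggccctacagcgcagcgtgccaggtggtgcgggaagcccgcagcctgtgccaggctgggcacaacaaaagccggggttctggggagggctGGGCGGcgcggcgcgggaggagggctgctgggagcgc
Adam10 promoter: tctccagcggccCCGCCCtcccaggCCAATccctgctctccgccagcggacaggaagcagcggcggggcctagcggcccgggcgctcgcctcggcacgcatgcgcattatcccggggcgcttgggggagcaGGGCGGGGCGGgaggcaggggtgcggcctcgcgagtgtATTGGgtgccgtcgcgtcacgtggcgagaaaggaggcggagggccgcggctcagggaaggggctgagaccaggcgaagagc
Adam17 promoter: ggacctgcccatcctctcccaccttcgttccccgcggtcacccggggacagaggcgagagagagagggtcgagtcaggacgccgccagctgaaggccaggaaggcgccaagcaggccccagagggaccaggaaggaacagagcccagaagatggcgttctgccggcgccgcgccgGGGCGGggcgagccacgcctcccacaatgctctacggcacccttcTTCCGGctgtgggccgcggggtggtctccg
Adamts1 downstream region: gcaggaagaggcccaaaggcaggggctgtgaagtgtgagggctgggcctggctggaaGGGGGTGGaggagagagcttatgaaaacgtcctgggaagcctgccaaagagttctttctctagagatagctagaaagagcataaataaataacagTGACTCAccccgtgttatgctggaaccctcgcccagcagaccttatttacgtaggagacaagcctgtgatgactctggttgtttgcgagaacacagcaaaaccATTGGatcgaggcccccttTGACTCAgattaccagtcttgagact
Timp3 intron 1 region: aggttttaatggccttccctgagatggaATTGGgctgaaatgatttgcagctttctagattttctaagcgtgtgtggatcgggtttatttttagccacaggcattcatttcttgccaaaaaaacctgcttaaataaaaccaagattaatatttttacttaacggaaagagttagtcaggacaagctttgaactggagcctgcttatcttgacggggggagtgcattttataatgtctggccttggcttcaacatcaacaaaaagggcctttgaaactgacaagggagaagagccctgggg

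The Adamts1 promoter window held 3 GC boxes and none of the other 4 motifs. Adam10 had 3 GC boxes, 2 of them sharing 1 base, and 2 CCAAT boxes, Adam17 had 1 GC box and 1 ETS match, and Timp2 had 1 GC box and 1 CCAAT box. A GC box stood in 32.7% of the 32841 promoter windows of that table, a CCAAT box in 33.9% and an ETS match in 12.03%. None of the 9 member promoters held the KLF letters, which stood in 15.9% of promoter windows. The Adamts1 downstream window held 1 KLF match, 2 AP-1 matches and 1 CCAAT box. Of 4639 non-promoter regions found in every library other than young WT Cre, 15.6% held the KLF letters in their central 300 bases, 16.1% the AP-1 letters and 28.0% a CCAAT box. The Timp3 window held 1 CCAAT box and none of the others. Base composition differed as well. GC content was 65.6% in the Adamts1, 68.0% in the Timp2, 70.4% in the Adam17 and 74.0% in the Adam10 promoter window, against 51.3% in the Adamts1 downstream and 41.7% in the Timp3 intron window. These matches describe letters only and do not show binding.

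The lists differed greatly in length, from 6157 and 9598 peaks in young WT Cre to 23848 to 27992 in young EC-K4KO, 32555 and 43893 for old WT Cre, and 39079 and 45026 for old EC-K4KO. Read totals were not part of the files used, so depth is unknown. Young and old libraries carry different name prefixes, so age and a library set cannot be told apart. Among the strongest 6157 peaks of each library, 11 to 12 of 15 endothelial marker genes had a peak, with a summed 28 to 30 peaks in young WT Cre, 24 to 25 in young EC-K4KO, 25 to 26 for old WT Cre and 25 to 27 for old EC-K4KO. Pericyte and smooth muscle genes summed to 0 to 1 peaks over 12 genes, and microglia genes to 0 over 12 in every library. Astrocyte genes summed to 0 in young WT Cre, 0 to 1 in young EC-K4KO, 1 to 2 for old WT Cre and 2 for old EC-K4KO for 10 genes, and oligodendrocyte and neuron genes to 0 to 1 over 10 genes each. In whole lists, pericyte and smooth muscle genes with a promoter peak numbered 3 for old WT Cre replicate 2, 6 and 3 for old EC-K4KO, and 0 in the other libraries. Promoter peaks were there for 0 to 2 astrocyte, 0 to 2 oligodendrocyte, 0 to 3 neuron and 0 microglia genes per library. Of the microglia genes, Sall1 (8 libraries) and Siglech (6) had whole-list peaks most often. The part of other cells in the results below was not tested. At the targeted gene, every library had 1 promoter peak of Klf4, and peaks covered 33 to 515 bp of its gene body. The lists give no read depth over single exons, so they do not check the deletion.

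The first comparison asked how many peaks the protease genes had near their starts and elsewhere. The 10 genes together had 6 and 8 peaks in young WT Cre, 19, 27 and 30 in young EC-K4KO, 35 and 34 for old WT Cre, and 42 and 34 for old EC-K4KO. Every library outside young WT Cre thus had more than both young WT Cre libraries. Most of the additional member peaks lay outside promoters, as did most peaks of the longer lists in general, where promoter-TSS peaks made up 51.2% of all peaks in young WT Cre, 27.0% in young EC-K4KO, 22.0% for old WT Cre and 20.3% for old EC-K4KO. Promoter-TSS peaks numbered 3 and 3 in young WT Cre, 3, 5 and 5 in young EC-K4KO and 5 in each of the 4 old libraries, while other peaks numbered 3 and 5, then 16, 22 and 25, then 30 and 29, then 37 and 29. As group means, non-promoter peaks came to 4 ± 1.4 in young WT Cre (SD, n = 2), 21 ± 4.6 in young EC-K4KO (n = 3), 29.5 ± 0.71 for old WT Cre (n = 2) and 33 ± 5.7 for old EC-K4KO (n = 2).

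Scaled to list length, the groups no longer stood apart. Per 10000 peaks of the list, the genes had 9.04 ± 0.997 peaks in young WT Cre, 9.78 ± 1.57 in young EC-K4KO, 9.21 ± 1.75 for old WT Cre and 9.01 ± 0.444 for old EC-K4KO, and the 4 ranges overlapped. In the strongest 6157 peaks of each library, they had 6 and 8 peaks in young WT Cre, 5, 7 and 4 in young EC-K4KO, 5 and 4 for old WT Cre, and 5 and 7 for old EC-K4KO. Promoter peaks numbered 2 to 3 in every one of these equal-length lists.

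**Figure D1:**
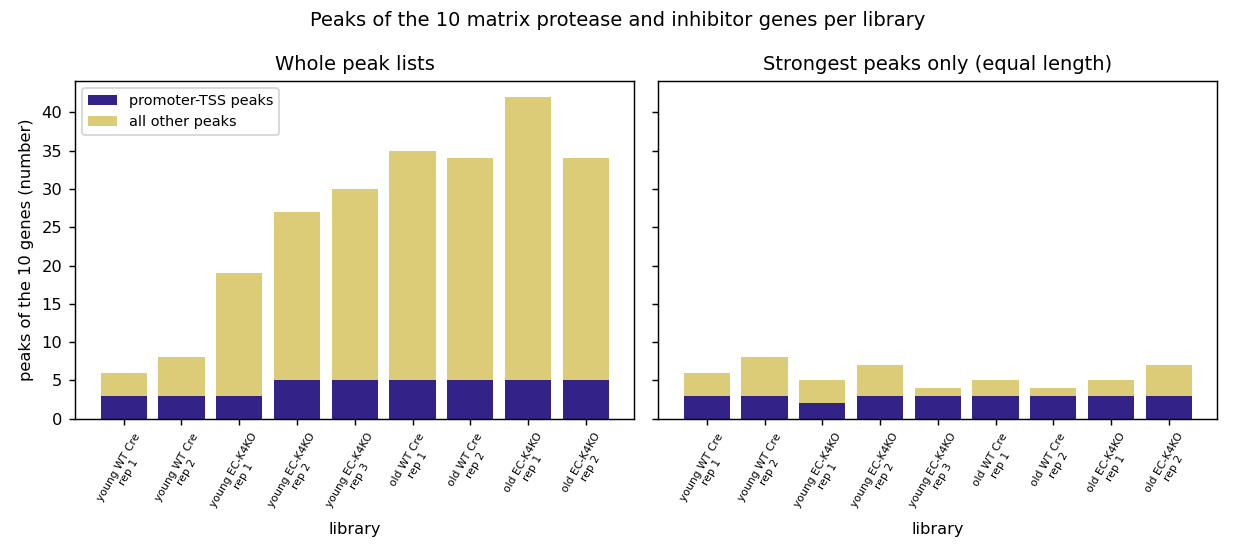
Number of peaks of the 10 genes (vertical axis) in each of the 9 libraries (horizontal axis), split into promoter-TSS peaks and all other peaks, for whole lists (left) and the strongest 6157 peaks of each library (right). Whole lists run from 6 peaks in young WT Cre to 42 for old EC-K4KO, whereas equal-length lists hold 4 to 8 in every library.

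The median peak of these genes stood higher in its list than the median peak of its class in every library for promoters and in 8 of 9 for the rest, which is a description with no test. The exception was young WT Cre replicate 1, at 70.5% against 66.5%. Place in the list is given as a percent, the rank by -log10 p divided by the list's length, so a low percent is a strong peak. The median place of member promoter peaks was 28.9% in young WT Cre, 11.3% in young EC-K4KO, 11.5% for old WT Cre and 11.1% for old EC-K4KO, beside 35.5%, 20.5%, 17.7% and 16.9% for all promoter peaks. For the other peaks the medians were 62.5%, 42.9%, 34.0% and 37.1%, beside 66.7%, 61.7%, 59.2% and 57.9% over all peaks outside promoters. Median width of member non-promoter peaks was 218, 382, 412 and 486 bp in the same order of groups, beside 320.5, 338, 346.5 and 377 bp. For promoter peaks it was 412.5, 540, 522 and 589 bp, beside 378, 536, 576 and 635 bp.

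Of the 52 regions, 5 held a promoter-TSS peak. By class, 91 of the 235 peaks were intronic, 86 intergenic, 39 promoter-TSS, 14 exonic and 5 at transcript ends. A peak in all 9 libraries was found in 4 member regions (7.69%, beside 5.27% of all regions) and in a single library in 15 (28.8%, beside 57.3%). Absent from both young WT Cre libraries, whose lists were the shortest, were 42. Of the 15, 7 came from old EC-K4KO, 5 from young EC-K4KO, 3 from old WT Cre and 0 from young WT Cre. Of the 42, 7 were present in each of the 7 other libraries and in 0 of young WT Cre. The same counts over all regions were not made, so neither is read as a trait of these genes. Shares of gained regions with their background follow below. All coordinates are on GRCm38 (mm10), distances are the authors' and count from the annotated start, positive downstream, and gene spans are from GENCODE M21.

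**Figure D2:**
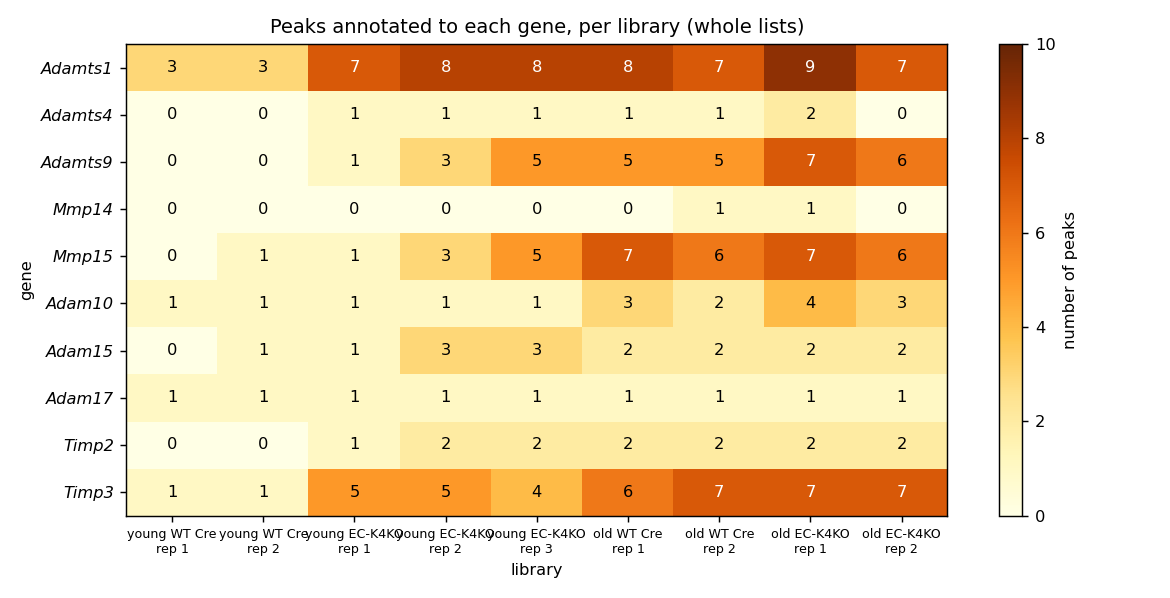
Number of peaks annotated to each of the 10 genes (rows) in each library (columns), whole lists, colour from 0 to 10 peaks. Adamts1 has 3 peaks in each young WT Cre library and 7 to 9 in the other 7 libraries, Adam17 has 1 throughout, and Mmp14 has a peak in 2 libraries.

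Among the ADAMTS genes, Adamts1 (chr16:85793827-85803113, minus strand) carried 60 of the 235 peaks, the most of the 10. It had 3 and 3 peaks in young WT Cre, 7, 8 and 8 in young EC-K4KO, 8 and 7 for old WT Cre and 9 and 7 for old EC-K4KO. Its promoter region (chr16:85802763-85803370), which spans the gene's start and the sequence printed above, was open in all 9 libraries. The promoter peak stood at 37.6% and 26.8% of the list in young WT Cre, 6.15%, 12.7% and 12.3% in young EC-K4KO, 7.62% and 15.4% for old WT Cre, and 9.25% and 12.9% for old EC-K4KO. Its width was 300 and 319 bp in young WT Cre against 486 to 570 bp in young EC-K4KO, 441 and 524 bp for old WT Cre and 526 and 511 bp for old EC-K4KO. The other region open in all libraries lay 46.8 kb downstream of the start, in intergenic sequence (chr16:85756070-85756606), and holds the AP-1 and KLF matches shown above. It stood at 56.0% and 24.0% in young WT Cre, 18.3%, 15.5% and 12.3% in young EC-K4KO, 10.8% and 13.6% for old WT Cre and 11.0% and 11.8% for old EC-K4KO, and it was the strongest Adamts1 region outside the promoter by mean place.

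**Figure D3:**
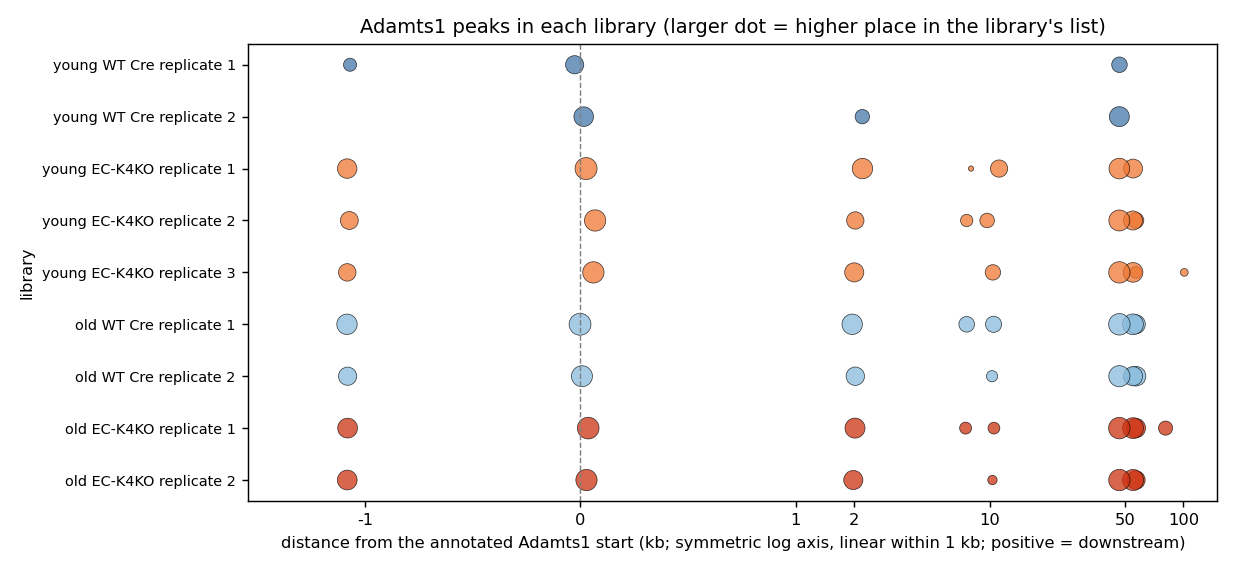
Peaks annotated to Adamts1 in each library (rows), by distance from the annotated start in kb on a symmetric log axis that is linear within 1 kb. Larger dots stand higher in their library's list. All 9 libraries have the promoter and the peak 46.8 kb downstream, and the group 55 kb to 57 kb downstream is absent from young WT Cre.

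To compare lists of unequal length, the 4872 regions with a peak in all 9 libraries were ranked against each other in each library, and the ranks were turned into normal scores and fitted with limma. On that scale the Adamts1 promoter scored 0.08 and 0.02 in young WT Cre, 0.54, -0.22 and -0.31 in young EC-K4KO, -0.18 and -0.71 for old WT Cre and -0.42 and -0.66 for old EC-K4KO. All 4 old libraries were below each young library of the same genotype. The old minus young difference was -0.50 (SE 0.311, adjusted p = 0.326) in WT Cre and -0.54 (SE 0.284, adjusted p = 0.269) in EC-K4KO, neither past 0.05. Single libraries weighed heavily here: the first was -0.23 without old WT Cre replicate 2 and -0.76 without old WT Cre replicate 1, and the second -0.27 without young EC-K4KO replicate 1. Genotype differed by -0.05 (SE 0.284) in young and -0.09 (SE 0.311) in old libraries, adjusted p of 0.942 and 1. The promoter width in the same regions, centred on each library's median on a log2 scale, differed between old and young EC-K4KO by -0.26 (SE 0.117, adjusted p = 0.662). The 46.8 kb region scored -0.47 and 0.13 in young WT Cre, from -0.64 to -0.31 in young EC-K4KO and from -0.63 to -0.54 in the 4 old libraries. For that region the difference closest to the threshold was old minus young WT Cre, -0.40 (SE 0.251, adjusted p = 0.327). It was -0.09 without young WT Cre replicate 2 and -0.63 without young WT Cre replicate 1. Ranking by fold enrichment in place of -log10 p turned it to 0.30.

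Further Adamts1 regions were seen in 8 libraries each, one in intron 1 (2.03 kb downstream) and the other upstream (-1.23 kb), each missing from 1 young WT Cre library. Regions at 10.4 kb (chr16:85791528-85794007, at the gene's 3' end) and 55.0 kb downstream were present in all 7 libraries outside young WT Cre and in 0 of young WT Cre. The first was broad, covering 316, 776 and 1779 bp in young EC-K4KO, 1828 and 2002 bp for old WT Cre and 1733 and 2480 bp for old EC-K4KO. Its place ran from 44.4% to 87.4%, so it is a weak peak throughout.

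Adamts4, a second proteoglycan-cutting ADAMTS gene, had no promoter-TSS peak. Its 3 regions gave 0 and 0 peaks in young WT Cre, 1 in each young EC-K4KO library, 1 and 1 for old WT Cre and 2 and 0 for old EC-K4KO. Adamts9, which also has ADAMTS activity towards matrix proteoglycans, had 9 regions and no promoter-TSS peak. It had 0 peaks in both young WT Cre libraries, 1, 3 and 5 in young EC-K4KO, 5 and 5 for old WT Cre, and 7 and 6 for old EC-K4KO. The strongest was intronic, 26.4 kb downstream, and stood at 49.98%, 29.0% and 34.7% in young EC-K4KO, 17.3% and 30.4% for old WT Cre and 14.4% and 14.2% for old EC-K4KO. In GENCODE M21, which places the Adamts9 start at chr6:92943492, 8 of the 9 regions are nearer to the start of A730049H05Rik or Gm15737. The authors' distances count from another Adamts9 start. From that one, the regions at 5.17 kb and -2.78 kb are nearer to Adamts9 than to Gm15737 (26.9 kb and 34.9 kb). The assignment to Adamts9 is thus uncertain and depends on the start used.

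Among the membrane-type metalloproteinases, Mmp14 had the fewest peaks of the 10 genes. It had 1 peak for old WT Cre replicate 2 and 1 for old EC-K4KO replicate 1, at 82.7% and 95.7% of their lists, and 0 elsewhere. Mmp15 had 8 regions and 0 and 1 peaks in young WT Cre, 1, 3 and 5 in young EC-K4KO, 7 and 6 for old WT Cre, and 7 and 6 for old EC-K4KO. Its promoter peak was missing from both young WT Cre libraries and from young EC-K4KO replicate 1, and stood at 43.8% to 69.1% where present. An upstream region (-3.34 kb) was present in all 7 libraries outside young WT Cre. It stood at 40.2%, 41.96% and 41.7% in young EC-K4KO, 11.2% and 28.6% for old WT Cre and 16.3% and 21.0% for old EC-K4KO. Close to it in mean place, 28.4% over 6 libraries against 28.7% over 7, was a region 40.5 kb downstream, at 13.7% to 54.6%. These means cover different libraries.

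Among the sheddases, Adam10 and Adam17 had promoter regions open in every library. The Adam10 promoter (chr9:70678616-70679561) was the strongest region of the 10 genes, at 4.37% and 3.07% in young WT Cre, 2.06%, 2.02% and 2.11% in young EC-K4KO, 0.431% and 1.19% for old WT Cre and 0.931% and 0.757% for old EC-K4KO. In young EC-K4KO replicate 1 its peak was classed as exon 1. Among the shared regions it scored 1.60 and 1.55 in young WT Cre and 1.28, 1.25 and 1.17 in young EC-K4KO, without overlap, but the difference of -0.34 (SE 0.202, limma adjusted p = 0.336) did not pass the threshold. Old WT Cre scored 1.77 and 1.41 and old EC-K4KO 1.37 and 1.55. Its other 3 regions were found in 1 to 4 libraries, all of them old, and the strongest of these by mean place was intronic, 80.8 kb downstream, present in 3.

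Adam17 had only its promoter region (chr12:21373267-21374057), 1 peak in each library. It stood at 33.8% and 24.1% in young WT Cre, 8.87%, 10.1% and 7.94% in young EC-K4KO, 4.76% and 5.03% for old WT Cre and 4.09% and 4.20% for old EC-K4KO. Ranked among the shared regions, it scored 0.19 and 0.13, then 0.21, 0.03 and 0.16, then 0.26 and 0.46, then 0.38 and 0.47. All 4 old libraries were above the young libraries of the same genotype, by 0.29 in EC-K4KO (SE 0.194, limma adjusted p = 0.393), which did not pass. Adam15, another membrane ADAM that ECs are known to express, had 2 regions. The one 0.884 kb downstream (chr3:89347928-89350382) was in 8 libraries. Its strongest peak was classed as intron 2, but the region spans the Adam15 start at 89349996 and overlaps the neighbouring Dcst1. None of its peaks was classed promoter-TSS. Peaks covered 179 bp of it in young WT Cre replicate 2, 269, 1368 and 1719 bp in young EC-K4KO, 2369 and 2323 bp for old WT Cre and 2410 and 2420 bp for old EC-K4KO. The 4 old libraries thus had the widest coverage, in 1 peak each that included the gene's start, while young EC-K4KO replicates 2 and 3 had 2 peaks. The other lies in an intron of Dcst1, and was found in 6 libraries.

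**Figure D4:**
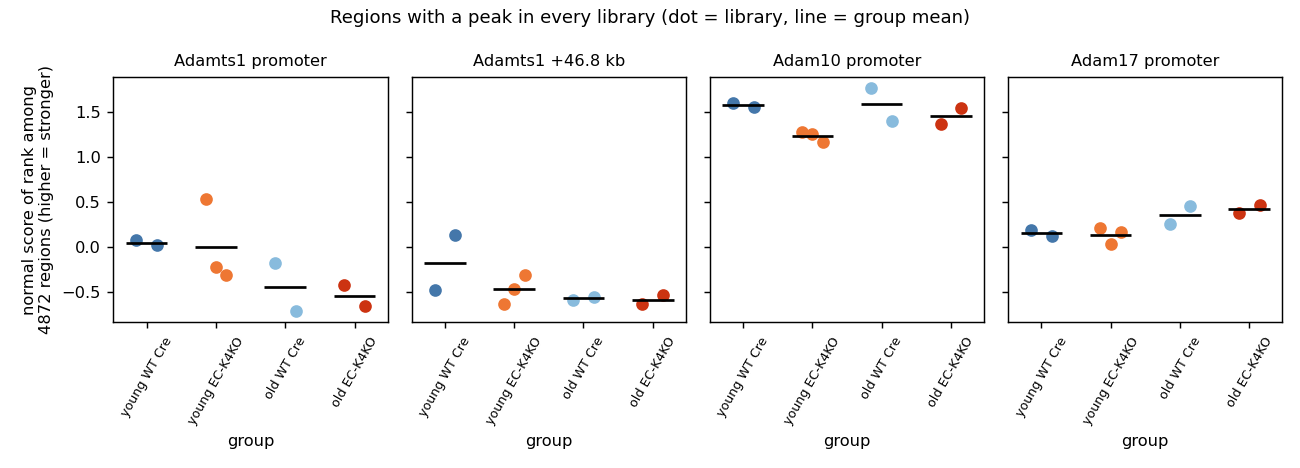
Normal score of the rank of each region (vertical axis, higher is stronger) among the 4872 regions with a peak in all 9 libraries, by group, for the 4 member regions so shared. Each dot is a library and each line a group mean. Old libraries lie below young ones of the same genotype at the Adamts1 promoter and above them at the Adam17 promoter, with no difference past the limma threshold.

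None of the 4 shared member regions passed the limma test in any contrast, for rank or for width. Over all 4872 regions, 4.15% passed for rank between young EC-K4KO and young WT Cre, 0% between the old genotypes, 6.08% between old and young WT Cre, 6.51% between old and young EC-K4KO and 0% for the interaction of genotype and age. In the 2 contrasts with no call, 189 and 525 regions had an unadjusted p under 0.05, and 0 of the 4 member regions did. For width the shares passing were 13.5%, 0%, 12%, 0.123% and 0.349% in the same order, and 93 regions had an unadjusted p under 0.05 between the old genotypes. The median difference of the 4 regions in rank was -0.17, -0.05, -0.19, 0.06 and 0.15 in that order, beside 0.00, -0.00, 0.02, 0.01 and 0.00 over all regions.

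Neither inhibitor had a peak at its start in young WT Cre. The Timp2 promoter region (chr11:118355151-118355690) was present in the other 7 libraries, at 53.2%, 60.5% and 47.4% in young EC-K4KO, 22.1% and 31.5% for old WT Cre and 26.3% and 27.0% for old EC-K4KO. All 4 old libraries stood higher than all 3 young EC-K4KO libraries. Its peak was 241, 221 and 218 bp wide in young EC-K4KO against 298 and 425 bp for old WT Cre and 466 and 465 bp for old EC-K4KO. The second Timp2 region, upstream (-7.88 kb), was found in 6 libraries at 29.9% to 69.1%.

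Timp3 lies within an intron of Syn3, a gene transcribed from the opposite strand, and had 11 regions. It had 1 and 1 peaks in young WT Cre, 5, 5 and 4 in young EC-K4KO, 6 and 7 for old WT Cre and 7 and 7 for old EC-K4KO. The region at its start (chr10:86300256-86301013, 0.222 kb downstream) was classed as exon 1 and was in the 7 libraries outside young WT Cre. It stood at 17.6% to 36.0%, with the groups overlapping. A region in intron 1 (chr10:86331540-86332352, 31.5 kb downstream) stood at 71.8%, 55.6% and 46.5% in young EC-K4KO, 21.3% and 27.3% for old WT Cre and 20.1% and 18.0% for old EC-K4KO. Here too, all old libraries were above all young EC-K4KO libraries. A region of like mean place, in intron 2 and 41.4 kb downstream, was at 54.8% in young WT Cre replicate 2, 22.4% to 29.5% in young EC-K4KO, 19.1% and 28.6% for old WT Cre and 11.0% and 9.52% for old EC-K4KO.

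Because so few member regions were shared by all libraries, the same fit was repeated, after the lists had been seen, on the 11594 regions with a peak in each of the 7 libraries outside young WT Cre. These included 16 member regions of 8 genes. Between old and young EC-K4KO, 2 of the 16 passed, beside 8.62% of all regions. The Timp3 intron 1 region scored -1.87, -1.48 and -1.25 in young EC-K4KO and -0.50 and -0.17 for old EC-K4KO, a difference of 1.20 (SE 0.213, limma adjusted p = 0.0190). The Adamts1 region 10.4 kb downstream scored -1.02, -1.79 and -1.73 in young EC-K4KO and -3.12 and -3.09 for old EC-K4KO, a difference of -1.59 (SE 0.258, limma adjusted p = 0.0164). It was thus near the last place of the 11594 regions for old EC-K4KO. For each of these regions the call was lost when either old EC-K4KO library was left out, with differences of 1.04 to 1.36 for Timp3 and about -1.58 for Adamts1, and adjusted p of 0.153 to 0.229.

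For old WT Cre against young EC-K4KO, which differ in genotype as well as age, 2 of the 16 passed, beside 10.1% of all regions. The Timp3 intron 1 region scored -0.53 and -0.49 for old WT Cre, 1.03 above young EC-K4KO (SE 0.213, limma adjusted p = 0.0236). The Timp2 promoter scored -1.34, -1.73 and -1.29 in young EC-K4KO and -0.58 and -0.69 for old WT Cre, a difference of 0.82 (SE 0.186, limma adjusted p = 0.0301). In old EC-K4KO it scored -0.90 and -0.71, and its difference of 0.65 from young EC-K4KO (SE 0.186, limma adjusted p = 0.0607) did not pass. The Timp2 call was lost without any 1 library other than young EC-K4KO replicate 3, with adjusted p up to 0.181, and the Timp3 call without young EC-K4KO replicate 1 or any 1 old library, up to 0.147. Between old EC-K4KO and old WT Cre, 0 of the 16 and 0% of all regions passed in limma. At an unadjusted p under 0.05 were 678 of all 11594 regions and 3 of the 16 member regions. These 3 were Timp3 41.4 kb downstream (0.81, SE 0.194, limma adjusted p = 0.700), Adam15 0.884 kb downstream (-0.74, SE 0.230, adjusted p = 0.755) and Adamts1 10.4 kb downstream (-0.72, SE 0.283, adjusted p = 0.804). Over the 16 regions the median difference was 0.07 between old and young EC-K4KO, -0.06 for old WT Cre against young EC-K4KO and -0.03 between the old genotypes, beside 0.01, 0.03 and -0.00 over all regions.

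**Figure D5:**
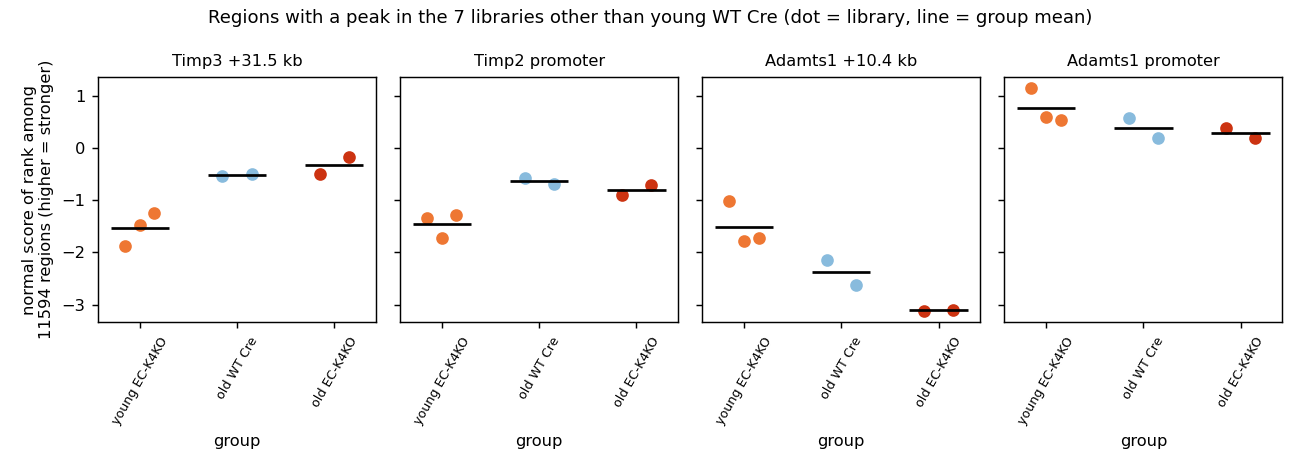
Normal score of rank among the 11594 regions with a peak in every library outside young WT Cre (vertical axis, higher is stronger) for the 3 member regions that passed a contrast and the Adamts1 promoter. Dots are libraries and lines group means. The Timp2 promoter and the Timp3 region 31.5 kb downstream lie higher in old libraries than in young EC-K4KO, and the Adamts1 region 10.4 kb downstream lies lower.

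Regions counted as gained had a peak in at least 2 libraries of a group and in neither young WT Cre library. Of 25 member regions of young EC-K4KO, 16 were gained (64%), beside 52.3% of all 18033 regions of that group. Old WT Cre gained 20 of 30 (66.7%, beside 64.8%), and old EC-K4KO 23 of 33 (69.7%, beside 73.7%). The young EC-K4KO count was 8 without replicate 2 and 8 without replicate 3. In equal-length lists 0 of 4, 0 of 4 and 0 of 5 member regions were gained in these groups, beside 11.6%, 13.4% and 14.8% of all regions. The member shares were thus near the background with whole lists.

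Peak number per gene was tested for genotype with age held fixed, and for age with genotype held fixed, by exact permutation over 60 arrangements (two-sided, smallest possible p = 0.0167). Of 17878 genes, 0% passed for either factor after adjustment, and 1024 genes (5.73%) for genotype and 4063 (22.7%) for age had an unadjusted exact p under 0.05. With so few arrangements, a gene could pass only if a large share of all genes reached the smallest p. The 0% therefore does not show that peak numbers were alike. The lowest adjusted p was 0.485 for genotype and 0.0927 for age. Timp3 had 3.92 more peaks and Adam10 2 more in old libraries (exact p = 0.0167, adjusted p = 0.0927 for both). Mmp15 had 4.75 and Adamts9 4.25 more (exact p = 0.0333, adjusted p = 0.147 for both). For genotype, Adamts9 had 2.25 more peaks in EC-K4KO (exact p = 0.0333, adjusted p = 0.485), and Adamts1 had 2.58 more (exact p = 0.0667, adjusted p = 0.485). Per 10000 peaks of the list, Adamts1 differed by -1.55 with age and -0.55 with genotype and Adam10 by -0.12 and -0.38, and Adam15 by -0.20 with age, each opposite in sign to its plain count. In equal-length lists the age difference was -0.5 for Timp3 and 0 for Mmp15 and Adam10, and per 10000 peaks it was 0.13 for Timp3 (exact p = 0.667, adjusted p = 0.856). Per 10000 peaks, Adamts9 differed by 0.88 and Mmp15 by 0.81 with age (exact p = 0.1, adjusted p = 0.312 for both), and Adamts9 by 0.67 with genotype. These kept the sign of their plain counts. The direction for at least Adamts1, Adam10, Adam15 and Timp3 thus depends on the scaling by list length.

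The rest of the metalloprotease family was a list of 49 genes, ADAMTS-like genes, Timp1, Timp4 and Reck included, with 245 regions. Among the regions in all 9 libraries it had 3, at Mmp28, Adamts17 and Adam9. Of these, only the upstream Mmp28 region (-4406 bp) passed, between old and young EC-K4KO, 1.40 higher in old libraries (SE 0.243, limma adjusted p = 0.0178). Mmp28 codes for a secreted metalloproteinase, and no region passed that contrast without either one of the old EC-K4KO libraries. Adamts17 differed by 0.73 (SE 0.251, adjusted p = 0.0947) between old and young WT Cre, and the Adam9 promoter by -0.79 (SE 0.290, adjusted p = 0.129) between young EC-K4KO and young WT Cre, in limma. In whole lists this family gained 76% of its regions in young EC-K4KO, 82.9% for old WT Cre and 88.7% for old EC-K4KO, on the definition above, beside the 52.3%, 64.8% and 73.7% of all regions. In equal-length lists it gained 2 of 3, 1 of 3 and 1 of 3, beside 11.6%, 13.4% and 14.8% of all regions, and so few regions allow no reading.

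The promoter regions whose scores over the 9 libraries were most like those of the Adamts1 promoter, among 3411 shared regions with a promoter-TSS peak, were those of Cebpd, Dsel, Hccs, Snhg8 and Etaa1, with Pearson's r of 0.918, 0.915, 0.912, 0.910 and 0.901. The Adam10 and Adam17 promoters had r of -0.05 and -0.63 with it. The 9 points share their libraries and list lengths, and the values are a description.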

How the data were processed

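Each of the 9 Omni-ATAC-seq libraries came with 1 MACS2 broad peak list and 1 HOMER annotation of it. Per the labels and methods, the authors trimmed reads with TrimGalore, aligned them to mm10 with Bowtie2 and called broad peaks per library. The deposited lists give for each peak its fold enrichment, its score and its p and q as -log10 values, all as MACS2 made them, and hold no reads, so count tests and intervals for depth could not be had. Lists end near a q of 0.1 and differ in length, so weak regions are missing from short lists.

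Peaks were assigned to genes by the deposited Gene Name. Rank used -log10 p. Equal-length lists kept the strongest 6157 peaks, the length of the shortest list. Regions shared by all 9 libraries were given normal scores of rank, or log2 width centred on the library median, and fitted with 1 mean per group in limma 3.58.1 (R 4.3.3) with Benjamini-Hochberg adjustment over all regions at 0.05. Peak number per gene was tested by exact permutation. Both were tested on simulated data. Python 3.11.15, pandas 2.3.3, scipy 1.17.1 and pysam 0.24.0 were used. For each gene, shared regions, the promoter and the strongest region outside it by mean place were named. The strongest Adamts4 region is not reported here. Other regions, those that passed in the 7-library fit included, were named after their values were seen. Genes outside the 10 were named as metalloprotease family members with a call or close to one, and as the 5 most like the Adamts1 promoter.

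The members and gene lists were chosen with earlier results of these data known. Alternatives were ranking by fold, a q under 0.05 or 0.01, an overlap of 50%, a robust prior with trend, log2 peak numbers, promoter regions alone, 2 groups alone, uncentred width, equal-length lists, scaling by list length, promoters within 1000 bp, gain in every library, a replicate block and leaving out each library.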

Additional observations from a re-analysis of the deposited data

How the results depend on the processing

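List length limits the member results: 4 of their 52 regions were shared by all libraries, and in young WT Cre a missing peak cannot be told from a weak one. No shared member region passed the test of rank or width between groups as reported. The numbers of regions passing, out of all those tested, did change. For rank, ordering by fold enrichment gave 82 (young EC-K4KO minus young WT Cre) and 662 (old minus young WT Cre), and it turned the Adamts1 region 46.8 kb downstream to 0.30 in the latter. Promoter regions alone gave 42, 138 and 109 (young genotypes, ages in WT Cre, ages in EC-K4KO). Fits on the libraries of 2 groups alone gave 0, 3, 0 and 588 (young genotypes, old genotypes, ages in WT Cre, ages in EC-K4KO). Width without centring gave 2886, 3433 and 433 (young genotypes, ages in WT Cre, interaction). Ranking the 7-library regions by fold gave 1828 and 504 (old EC-K4KO and old WT Cre, each against young EC-K4KO). The cause of these shifts was not tested.

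Correlations between the deviations of same-numbered libraries were low (12 correlations, -0.01 to 0.12, 1 of them over 0.1). The 12 values are not independent, since some repeat, such as 0.0466 for both replicate numbers of young and old WT Cre. They therefore do not settle whether same-numbered libraries share more than a number. The replicate block gave 0, 187 and 55 regions for rank (young genotypes, ages in WT Cre, ages in EC-K4KO), 14, 68, 0 and 0 for width (the same contrasts, then the interaction), and 518 and 764 for the 7-library contrasts. With the block the Timp2 promoter difference for old WT Cre against young EC-K4KO was 0.90 (limma adjusted p = 0.0506).

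For the member counts, equal-length lists gave 0, 0 and 0 gained regions for young EC-K4KO, for old WT Cre and then for old EC-K4KO, 2.67, 3 and 3 promoter peaks and 2.67, 1.5 and 3 other peaks per library. A gain required in every young EC-K4KO library left 7. Promoters taken within 1000 bp held 6.33, 7.5 and 7 peaks in the same groups, and old WT Cre then had 27 others. In equal-length lists the difference in peak number turned to -0.083 for Adamts1 and -0.5 for Mmp15 by genotype, and to -0.42 for Adamts1 and -0.5 for Timp3 by age. Per 10000 peaks it turned to -0.55 for Adamts1 and -0.38 for Adam10 by genotype, and to -1.55, -0.12 and -0.20 for Adamts1, Adam10 and Adam15 by age.

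Leaving out 1 library at a time, regions passing for rank ranged from 4 to 812 between young genotypes (4 without young EC-K4KO replicate 2), 0 to 0 between old genotypes, 0 to 919 between ages in WT Cre (0 without old WT Cre replicate 1), 0 to 997 between ages in EC-K4KO (0 without either old EC-K4KO library) and 0 to 89 for the interaction. For width they ranged from 50 to 1396, 0 to 1, 20 to 1372, 0 to 23 and 0 to 222. The 7-library contrasts ranged from 0 to 0 between old genotypes, 0 to 1343 between ages in EC-K4KO and 0 to 1407 for old WT Cre against young EC-K4KO. Where 1 library is left in a group it is assumed to vary like the other groups. Gained member regions ranged from 8 to 19, 20 to 25 and 23 to 32. Promoter peaks ranged from 4 to 5 in young EC-K4KO, and other peaks from 3 to 5, 19 to 23.5, 29 to 30 and 29 to 37 in the 4 groups. Peak number is not read for stability here, since without 1 young EC-K4KO library its smallest exact p is 0.0556. Among single members and contrasts, 372 values kept direction and side of the threshold, 16 lost the threshold, 1 passed it and 10 changed sign. That tally mixes fits with differences in peak number, none of which passed as reported, so none of those could lose the threshold. Only the Timp3, Timp2 and Adamts1 calls of the 7-library fit could lose it, so the first count does not measure stability.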
